A study of Mus musculus with 2 samples.

Results

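The nuclear-encoded subunits of oxidative phosphorylation were followed across 2 single-cell RNA libraries of mouse bone marrow derived macrophage cultures. Members were chosen by gene symbol alone: symbols beginning Ndufa, Ndufb, Ndufc, Ndufs or Ndufv (complex I), Uqcr (complex III), Cox4i, Cox5, Cox6, Cox7 or Cox8 (complex IV) or Atp5 (complex V), and the symbols Sdha, Sdhb, Sdhc and Sdhd (complex II), without the Ndufaf assembly factors. Of 31053 genes in the files, 85 matched and 81 had at least 10 unique molecular identifiers (UMIs, tags that mark single captured RNA molecules) in each library. The 4 others, Cox7b2, Cox8b, Cox8c and a second Ensembl entry named Atp5o (ENSMUSG00000116933), had 0 UMIs in both libraries, while the least abundant member, Ndufa4l2, had 23 and 16. Marrow cells of 129Sv mice had been grown in 10% serum with the macrophage growth factor M-CSF at 50 ng/ml, and from day 7 they received 1 µg/ml of a truncated, non-polymerizing form of Tamm-Horsfall protein (THP, a protein made by the kidney, also called uromodulin) or its vehicle, 5% dextrose, for 18 h. There was 1 library per treatment, so no difference between them has a replicate check, and treatment cannot be told apart from culture dish or library preparation. No p-value is given for that reason.

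Oxidative phosphorylation takes place in the inner mitochondrial membrane. Complexes I and II pass electrons from NADH and succinate to ubiquinone, complex III passes them on to cytochrome c, and complex IV hands them to oxygen. Complexes I, III and IV pump protons as they do so, and complex V, the ATP synthase, uses the proton gradient to make ATP. Most subunits are encoded in the nucleus and imported, a few in mitochondrial DNA. Macrophages shift between respiration and glycolysis with their activation state, and mature neutrophils hold few mitochondria and depend largely on glycolysis.

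The promoters of nuclear subunit genes have long been studied for sites of nuclear respiratory factor 1 (NRF1), of ETS factors such as GABP, of YY1 and of estrogen-related receptors (ERR). Below are the windows of the 3 genes for subunit c of the ATP synthase, Atp5g1, Atp5g2 and Atp5g3, whose mature protein is the same but whose levels differed between cell classes, and of Cox8a, a small complex IV subunit and one of the members with the most UMIs. Each is 300 bases, from 250 before to 50 after a RefSeq start on GRCm38.p6, read 5′ to 3′ along the gene. Capitals mark matches to the motifs searched.
Atp5g1, chr11:96075582-96075881, minus strand: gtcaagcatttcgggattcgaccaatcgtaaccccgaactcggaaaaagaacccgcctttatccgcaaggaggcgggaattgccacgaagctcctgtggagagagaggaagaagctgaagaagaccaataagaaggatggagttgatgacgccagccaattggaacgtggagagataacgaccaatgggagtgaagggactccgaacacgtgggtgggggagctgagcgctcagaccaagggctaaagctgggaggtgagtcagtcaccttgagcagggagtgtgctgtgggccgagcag
Atp5g2, chr15:102670998-102671297, minus strand: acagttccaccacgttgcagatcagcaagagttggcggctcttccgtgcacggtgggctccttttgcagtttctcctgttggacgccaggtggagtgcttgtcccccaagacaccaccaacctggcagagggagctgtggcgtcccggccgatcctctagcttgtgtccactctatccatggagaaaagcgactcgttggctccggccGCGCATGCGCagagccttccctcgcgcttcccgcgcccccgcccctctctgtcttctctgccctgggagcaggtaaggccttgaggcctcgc
Atp5g3, chr2:73911277-73911576, minus strand: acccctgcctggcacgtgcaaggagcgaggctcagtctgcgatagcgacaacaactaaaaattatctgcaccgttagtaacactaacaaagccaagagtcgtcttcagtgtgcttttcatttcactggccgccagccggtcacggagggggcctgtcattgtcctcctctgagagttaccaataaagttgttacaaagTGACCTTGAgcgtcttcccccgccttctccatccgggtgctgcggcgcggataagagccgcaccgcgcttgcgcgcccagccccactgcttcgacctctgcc
Cox8a, chr19:7217567-7217866, minus strand: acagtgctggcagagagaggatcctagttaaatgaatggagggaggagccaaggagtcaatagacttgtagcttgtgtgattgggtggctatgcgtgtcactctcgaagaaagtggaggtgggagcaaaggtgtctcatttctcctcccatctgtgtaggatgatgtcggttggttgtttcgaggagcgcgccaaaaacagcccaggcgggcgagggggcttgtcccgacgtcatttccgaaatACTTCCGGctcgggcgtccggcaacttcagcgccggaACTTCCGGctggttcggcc
The search used exact letters on both strands: GCGCATGCG for NRF1, CCGGAAGT for ETS, AAGATGGCG for YY1 and TCAAGGTCA for ERR. Atp5g2 held NRF1 matches on both strands at bases 209 to 217 and 210 to 218 of the window, which share most of their bases, and Atp5g3 an ERR match on the opposite strand at bases 199 to 207. Cox8a held 2 ETS matches on the opposite strand, at bases 245 to 252 and 282 to 289. The Atp5g1 window held none of these letter strings.

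The promoter table matched 65 of the 81 members, with 70 windows. NRF1 letters were in 8 of these windows (11.4%), against 1.75% of all 32851 windows and 4.19% of those belonging to genes at 10 or more UMIs per 1000000 here. YY1 letters were in 7 member windows (10%), against 1.40% of all windows and 3.63% of those of expressed genes. ETS letters were in 5 (7.14%), against 3.89% and 9.64%, and ERR letters in 2 (2.86%), against 0.423% and 0.307%. In all, 21 members had a match, 1 of them to more than 1 motif, and 0 matches of different motifs overlapped. A match is a description of letters, not a site or a cause, and most members had none in this window.

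The THP library held 13193 barcodes and the vehicle library 11584, of which 12123 and 10978 passed the filters (at least 500 genes, at least 1000 UMIs, at most 10% mitochondrial UMIs). These cells carried 224825484 and 207662132 UMIs, with medians of 16113 and 17223 per cell. The libraries shared 42 cell barcodes. Levels are given as UMIs of a gene per 1000000 UMIs of a library or cell class (CPM), with exact Poisson 95% intervals that cover counting error only. CPM is a share of the captured RNA, is not divided by transcript length, and served to compare a gene between libraries and classes. Where different genes are set side by side, the values are UMI counts and not levels per length. Free RNA was not removed, so some UMIs of any cell may come from other cells. Subunit genes have processed pseudogenes, and reads shared with near-identical copies may have been split or dropped in the authors' counting. Values of overlapping genes are uncertain in the same way: both Ensembl entries named Atp5o overlap, the ends of Atp5j and Gabpa overlap on opposite strands, and neighbouring mitochondrial genes such as mt-Nd5 and mt-Nd6 overlap. No source used here gives the strand setting of the counting.

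Nearly all members made up a slightly larger share of RNA in the THP library. Summed over members, the level was 27721 CPM with THP and 23792 CPM with vehicle, and among the 75 members that reached 10 CPM in either library the median fold was 1.17 (log2 ratio 0.22, quartiles 0.15 to 0.27). The log2 ratio throughout is that of CPM + 1, THP over vehicle. It was above 0 for 71 of the 75 members. Among these members, the Poisson intervals of the libraries lay apart with THP lower for Ndufs1 and Sdha. The intervals overlapped for Ndufa10, Atp5a1 and Atp5c1. They cover counting error only, and how often they lie apart over all genes was not counted. Over all 8012 genes at this level the median log2 ratio was -0.18, 32.4% of ratios were above 0 and 11.4% were above the member median. The members also spread less around their median (SD of the log2 ratio 0.12) than all genes did (0.43). Other shares moved between the libraries too: genes with symbols beginning Rpl or Rps, nearly all of cytosolic ribosomal proteins, took 17.8% of UMIs with THP and 16.0% with vehicle, and the median number of genes per cell was 3699 and 4134.5. Their part in the member ratios was not tested.

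**Figure D1:**
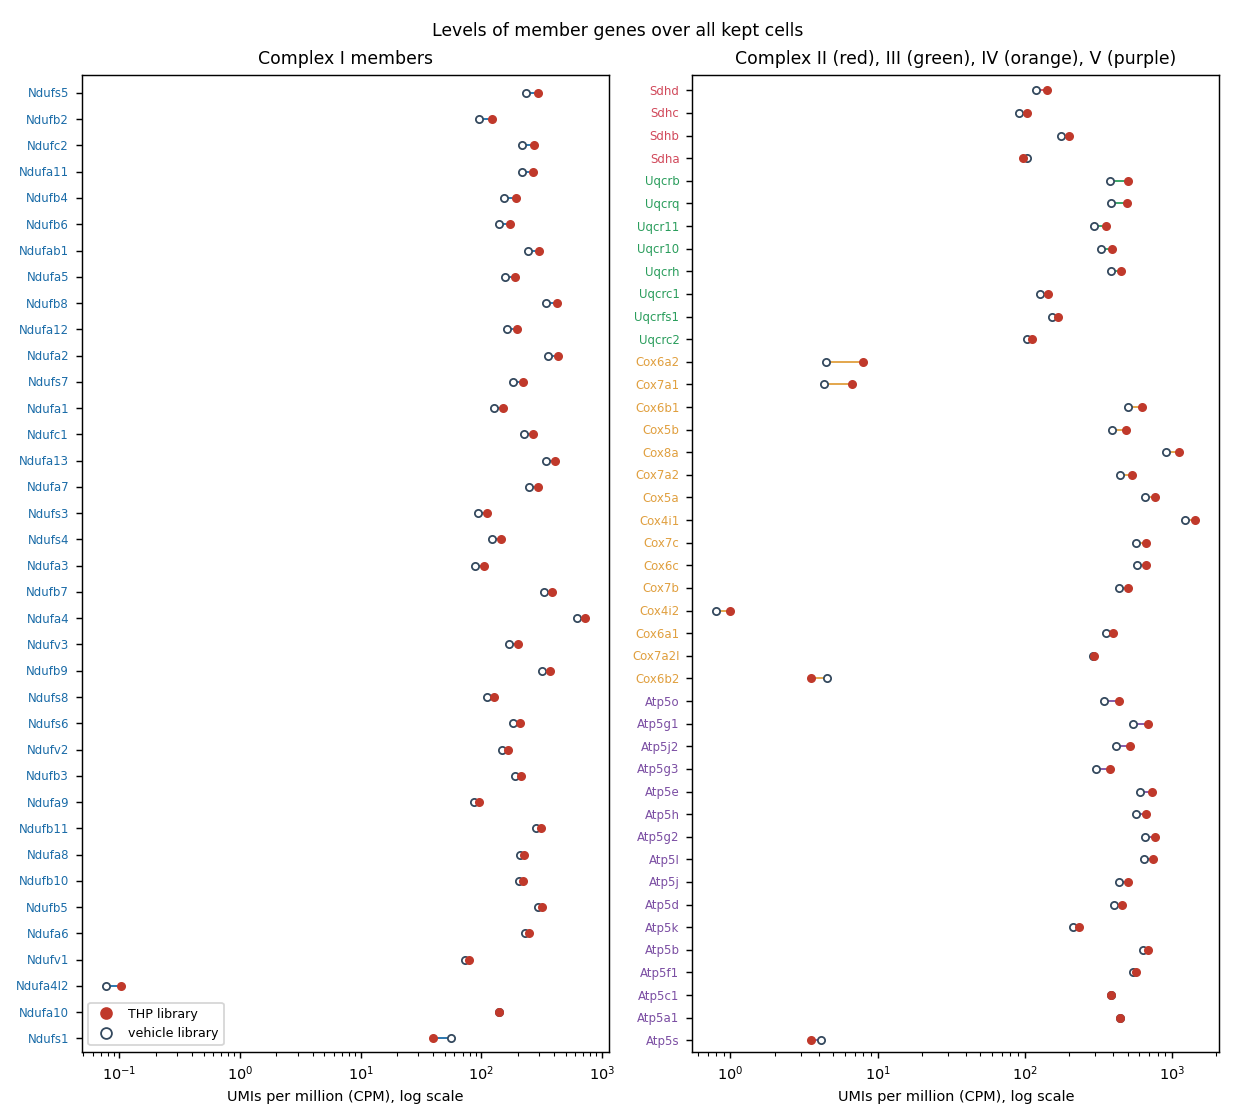
Levels of 80 of the 81 members in CPM (log axis) over all kept cells, with filled points for the THP library and open points for the vehicle library, ordered within each complex by the ratio between them. Filled points lie to the right of open ones for all but 4 of the plotted members at 10 CPM or more, by small distances, and Ndufs1 at the foot of complex I lies the other way.

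Few members differed by much. With a limit of 0.32 on the log2 ratio in either direction, which is a level 25% above that of the other library, 7 members were higher in the THP library (Ndufs5, Ndufb2, Ndufc2, Uqcrb, Uqcrq, Atp5g1 and Atp5o) and 1, Ndufs1, was lower. Over all genes 6.35% were higher and 36.8% lower past the same limit. The member count is therefore near the background for higher genes and far below it for lower ones. Ndufc2 (0.32) lay just inside the limit and Cox6b1 (0.32) just outside. The size of every ratio depends on how the libraries are scaled. With TMM factors, which set the bulk of genes near equal, the median of all genes moved from -0.18 to 0.11, the member median to 0.51, and the count past the limit to 69 higher and 0 lower, with a background of 28.5% higher. The distance between the member median and the median of all genes was 0.40 under both scalings.

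Complex I, the NADH dehydrogenase and the largest complex, had 38 members, of which 37 reached 10 CPM. Their median log2 ratio was 0.23, their summed level 8805 CPM with THP and 7575 CPM with vehicle, and 36 of 37 ratios were above 0. Accessory subunits without redox centres had the highest ratios. Ndufs5 had 298.2 CPM (296.0 to 300.5) with THP and 234.2 CPM (232.1 to 236.3) with vehicle, a log2 ratio of 0.35. Ndufb2 had 122 and 96.1 CPM (0.34). Ndufa4, the symbol-matched member with the most UMIs in this group, whose protein is now counted with complex IV, had 725 and 620 CPM (0.22). At the other end Ndufa10, an accessory subunit of the matrix arm, had 141 and 140 CPM with overlapping intervals (0.01).

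Ndufs1 stood apart from all other members. It encodes the largest subunit of complex I, which carries iron-sulfur clusters in the arm that takes electrons from NADH, and lies at chr1:63143596-63176833 on the minus strand (GRCm38, GENCODE M21). Its level was 39.8 CPM (39.0 to 40.7) with THP and 55.7 CPM (54.7 to 56.7) with vehicle, a log2 ratio of -0.47, and it remained below 0 in each alternative tried, from -0.51 to -0.19. The flavoprotein Ndufv1, which binds NADH beside it, had 78.6 and 74.0 CPM (0.09). The low value was thus not shared by this neighbouring subunit.

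Complex II, succinate dehydrogenase, has 4 members, all at 10 CPM, with a median of 0.18 and summed levels of 543 and 492 CPM. The flavoprotein Sdha, which oxidises succinate, had 97.5 CPM (96.2 to 98.8) with THP and 104 CPM (102 to 105) with vehicle, a log2 ratio of -0.09 that became 0.20 with TMM factors. The iron-sulfur subunit Sdhb had 201 and 177 CPM (0.18). The membrane anchors Sdhc and Sdhd had 103 against 90.9 CPM (0.18) and 142 against 120 CPM (0.24). Acod1, which makes itaconate, an inhibitor of succinate dehydrogenase, is no member and had 67.8 CPM with THP and 4.34 CPM with vehicle (3.69).

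Complex III, cytochrome bc1, had the largest fold of the summed level of the 5 complexes, 1.21, at 2621 against 2162 CPM, and all 8 ratios were above 0 with a median of 0.24. Small subunits led. Uqcrb, a subunit near the ubiquinone site, had 500.2 CPM (497.3 to 503.2) and 377.8 CPM (375.2 to 380.5), the highest log2 ratio of any member at 10 CPM (0.40). Uqcrq had 497 and 389 CPM (0.35). The core protein Uqcrc2 with 113 and 103 CPM (0.13) and the Rieske iron-sulfur protein Uqcrfs1 with 169 and 152 CPM (0.15) were the lowest. Cyc1, the cytochrome c1 of this complex, is missed by the symbol rule and had 165 and 141 CPM (0.23).

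Complex IV, cytochrome c oxidase, had 15 members with 10 UMIs in each library and 11 at 10 CPM, all with ratios above 0. The median was 0.23, the summed levels were 7523 and 6399 CPM, and 0 members passed the limit in either direction. The widely expressed isoforms were within a narrow range. Cox4i1, the regulatory subunit with the most UMIs of any member, had 1446 and 1232 CPM (0.23), and Cox8a had 1110 and 914 CPM (0.28). Cox6b1 with 630 and 504 CPM (0.32) and Cox5b with 489 and 395 CPM (0.31) had the highest ratios, Cox7a2 had 533 and 446 CPM (0.26), and Cox6a1 had 396 and 358 CPM (0.14). Cox7a2l, a factor that joins complexes III and IV into supercomplexes rather than a fixed subunit, had 295 and 290 CPM (0.02).

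Complex V, the ATP synthase, had 16 members and 15 at 10 CPM, with a median of 0.22 and summed levels of 8229 and 7164 CPM. Subunits of F1, the part that holds the catalytic sites, were spread over much of the range of the complex. The alpha subunit Atp5a1 had 442 and 445 CPM (-0.01) and the gamma subunit Atp5c1 had 387 in each library (-0.00), both with overlapping intervals, and both ratios became positive with TMM factors (0.27 and 0.28). The beta subunit Atp5b had 688 and 635 CPM (0.12), while the delta and epsilon subunits Atp5d and Atp5e had 462 against 404 CPM (0.19) and 732 against 609 CPM (0.27). The peripheral stalk was spread as well, since Atp5f1, its subunit b, had 569 and 541 CPM (0.07). Atp5o, another subunit of the peripheral stalk, which confers oligomycin sensitivity, had 437 and 347 CPM (0.33). The subunit c genes, which build the rotor ring, had 688 against 547 CPM for Atp5g1 (0.33), 769 against 659 CPM for Atp5g2 (0.22) and 378 against 306 CPM for Atp5g3 (0.30). Usmg5, a small subunit outside the symbol rule, had 226 and 178 CPM (0.34).

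Members have short transcripts, and in these libraries the ratio moved with transcript length. The longest annotated transcript had a median of 1129 bases over the 75 members and 3388 bases over 8008 genes. Spearman's rho between length and log2 ratio was -0.55 across those genes and -0.30 across the 75 members, given as descriptions, since genes are not independent and share the same 2 libraries. In the shortest decile of genes, which held 44 members, the median log2 ratio was 0.15 for all genes and 0.24 for members. After each ratio was set against the median of its own decile, the member median was 0.11 and 66 of 75 members stayed above their decile's median. Past the limit, 8 members were higher and 1 lower, where 13.2% of all genes were higher and 14.7% lower on the same scale. The count of higher members was thus near the background. Those 8 had longest annotated transcripts of 2101 to 6310 bases, Atp5g1 (4715) and Ndufb2 (4371) among them, and none lay in the shortest decile. Their place depends on the longest annotated transcript, and which transcript was captured was not tested. The member median is thus about 0.11 above genes of like annotated length and 0.40 above all genes. The part of transcript length in the difference between the libraries was not tested further.

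Other genes of the respiratory system were taken from lists, with the same limit of 10 CPM. Past the fold limit, 6.35% of all genes were higher and 36.8% lower on the CPM scale. With TMM factors these shares were 28.5% and 16.3%. The 13 mitochondrially encoded subunits, partners of the members in complexes I, III, IV and V, were all below 0, with a median of -0.24, and 4 were lower past the limit and 0 higher. The abundant mt-Co1 had 5051 and 5906 CPM (-0.23), and mt-Nd6 had 18.7 and 61.4 CPM (-1.66). The nuclear and mitochondrial subunits thus had medians of opposite sign, but with TMM factors, which raise every ratio alike, the mitochondrial median was 0.05, with 8 of 13 above 0, and the nuclear one 0.51. Past the limit, 4 of the 13 mitochondrial subunits were lower and 0 higher with TMM factors too. Of 77 mitochondrial ribosomal proteins, which translate the mitochondrial subunits, 65 were above 0 with a median of 0.16, 9 higher past the limit and 0 lower, and with TMM factors the median was 0.44, with 61 higher and 0 lower. Mrpl52 had 223 and 127 CPM (0.81), and Mrps27 had 12.3 and 15.5 CPM (-0.31). Of 38 assembly factors, 1 was higher and 2 were lower, with a median of 0.07, where 6.35% of all genes were higher and 36.8% lower. With TMM factors, under which the balance of all genes turned as well, 20 assembly factors were higher and 1 lower, with a median of 0.33. Sco2, a copper chaperone of complex IV, had the highest ratio of this list, at 26.2 and 19.2 CPM (0.43). Acad9, a complex I assembly factor, had the lowest, at 6.07 and 11.95 CPM (-0.87).

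The 14 enzymes of the tricarboxylic acid cycle, which feeds the chain, had a median of -0.04 (0.24 with TMM factors) and 0 past the limit in either direction, from Mdh2 at 290 and 263 CPM (0.15) to Sucla2 at 47.6 and 56.6 CPM (-0.24). Over all genes, as above, 6.35% were higher and 36.8% lower, and with TMM factors 28.5% and 16.3%. Among 10 carriers and partners, 2 were higher and 1 was lower, with a median of 0.11. With TMM factors 7 of these were higher and 0 lower, with a median of 0.39. Cytochrome c, Cycs, had 263 and 190 CPM (0.47), the ATP synthase inhibitor Atpif1 had 884 and 695 CPM (0.35), and the uncoupling protein homologue Ucp2 had 403 and 394 CPM (0.03). AA467197, whose human counterpart NMES1 is related to Ndufa4, had 19.5 and 26.1 CPM (-0.40). Of 12 regulators of mitochondrial biogenesis, 8 reached 10 CPM, with a median of -0.26 (0.02 with TMM factors), 0 higher and 2 lower. Esrra, which encodes an estrogen-related receptor, had 18.1 and 15.0 CPM (0.25), Nrf1 had 23.9 and 28.9 CPM (-0.26), Tfam had 27.7 and 33.2 CPM (-0.25) and Gabpa had 20.9 and 31.5 CPM (-0.57). Pprc1, a coactivator related to Ppargc1a, had 14.3 and 14.2 CPM (0.00), and with Esrra it made 2 of 8 ratios above 0 on the CPM scale. Ppargc1a itself had 0 and 2 UMIs, and its relative Ppargc1b had 2.46 and 4.002 CPM. The regulators had long transcripts, with a median of 4160 bases. Set against genes of the same length decile, their median was 0.04 and that of the cycle enzymes 0.05. Carriers and partners were at 0.20, mitochondrial ribosomal proteins at 0.17, assembly factors at 0.02 and mitochondrially encoded subunits at -0.29. The members, at 0.11 on this scale, lay below the carriers and the mitochondrial ribosomal proteins.

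Cell classes were gated with markers that are no members. A cell joined the class whose marker list exceeded its average by the largest factor, if that factor was at least 1.5 times the next, and 65.5% of THP and 66.3% of vehicle cells were assigned. With 1.2 to 1.8 times the next list, 1586 (13.1%) and 1693 (15.4%) cells lay near that limit. Classes with at least 200 cells in each library were macrophage (3329 THP and 1856 vehicle cells), MHC class II high (872 and 917), mature neutrophil (829 and 918), monocyte (697 and 1011), immature neutrophil (660 and 964), osteoclast-like (646 and 620) and myeloid progenitor (633 and 802). The cultures labelled as macrophages thus also held cells of other classes. The mature neutrophil list held S100a8 and S100a9 beside Retnlg, Cxcr2, Csf3r, Mmp8 and Il1r2. Per 10000 UMIs of a cell, its median was 2875 in mature and 2822.5 in immature THP neutrophils, and 2447 and 2486 in the vehicle library. The immature list (Ngp, Camp, Ltf, Fcnb and Cebpe) had medians of 7.70 and 888, and of 8.46 and 856. These 2 classes thus differed in the immature list and hardly in the mature one. Doublets were not called. In place of a caller, the ratios were recomputed without the 5% of cells with the most UMIs.

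The members took their largest share of RNA in the myeloid progenitor class and their smallest in the neutrophil classes. In the THP library the summed level was 31446 CPM in progenitors, 30875 in monocytes, 27796 in macrophages, 27558 in MHC class II high cells, 27492 in osteoclast-like cells, 16709 in immature and 14938 in mature neutrophils. In the vehicle library these levels were 27235, 26181, 23993, 23453, 23466, 13754 and 13932 CPM. The top 3 places were the same in both libraries. MHC class II high and osteoclast-like cells changed places between the libraries, with overlapping Poisson intervals in each. The neutrophil classes changed places too, with intervals that overlapped only in the vehicle library. That exchange depended on the processing: with a stricter gate (3 times the next list) or equal weight per cell, immature neutrophils lay above mature ones in both libraries. Over single cells, the median member share of a cell's UMIs was 3.15% in THP progenitors and 1.13% in THP mature neutrophils, and 2.68% and 1.01% in the vehicle library.

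**Figure D2:**
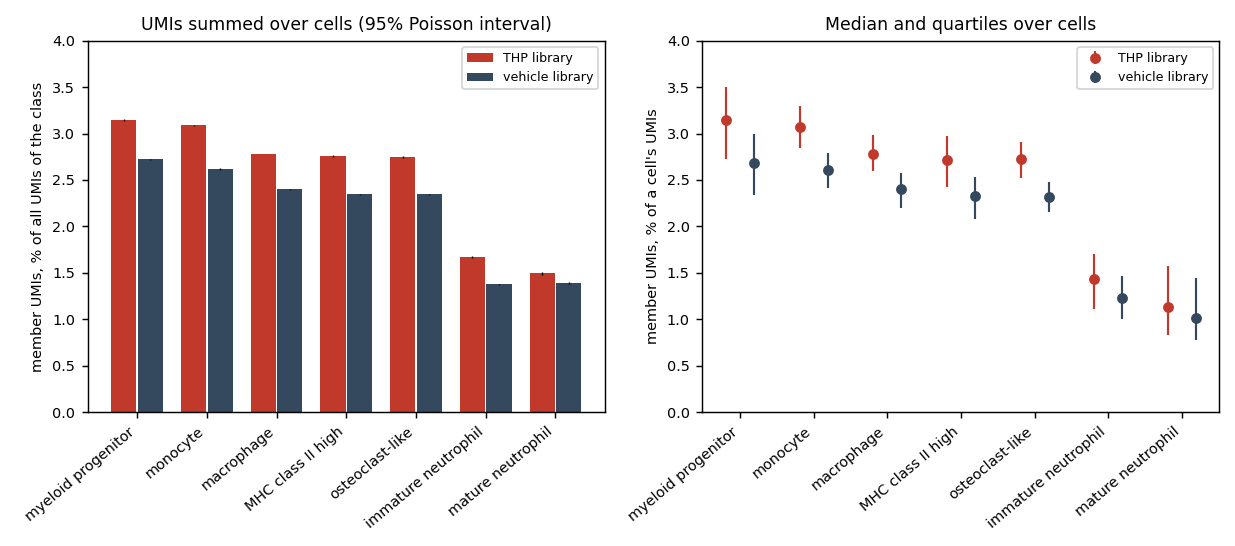
Share of UMIs from member genes by gated class, with THP in red and vehicle in dark blue: left, UMIs summed over a class with exact Poisson 95% intervals, and right, the median and quartiles over single cells. In both panels the THP value is above the vehicle value in each of the 7 classes, and both neutrophil classes lie below the other 5.

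Every one of the 75 members had a higher level in progenitors than in mature neutrophils, in both libraries. With a limit of 2-fold, 46 of 75 members were higher in THP progenitors and 0 lower, where 39.4% of all genes were higher and 10% lower. In the vehicle library 35 of 75 were higher and 0 lower, against 31.3% and 11.6% of all genes. The median fold was 2.26 (THP) and 1.97 (vehicle), a log2 ratio of 1.18 and 0.97, while the median log2 ratio of all genes was 0.73 and 0.50. Atp5g1, Ndufab1, the acyl carrier protein of complex I, and Atp5a1 had some of the steepest folds in the THP library, at 4.36, 4.09 and 4.204. Ndufa3 had one of the flattest, at 1.21.

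Other quantities moved with this order. S100a8 and S100a9 alone took 26.8% and 22.7% of mature neutrophil UMIs but 4.18% and 3.44% of progenitor UMIs in the THP and vehicle libraries. With those UMIs left out of each class total, the fold of the summed level between progenitors and mature neutrophils was 1.61 and 1.57 in place of 2.11 and 1.95. Both genes are markers of the mature neutrophil gate. The counts past 2-fold, the median fold and the folds of single members were not recomputed without them. Mature neutrophils were also shallow, with a median of 2286 and 2103 UMIs per cell, against 17811 and 21676.5 in progenitors. The macrophage genes C1qa, C1qb and C1qc, which neutrophils should lack, summed to 42.9 and 26.2 CPM in mature neutrophils and to 1577 and 1788 CPM in macrophages. They are also markers of the macrophage gate, so both levels depend in part on the gate and do not measure free RNA. With a stricter gate (3 times the next list) the fold was 2.62 and 2.52, and with no margin 1.83 and 1.76. The part of free RNA and of depth in these levels was not tested.

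Complexes took similar parts of the members' UMIs in every class, with smaller differences on top. Complex I took 31.4% of member UMIs in THP macrophages and 34.7% in THP immature neutrophils, and 31.2% and 35.6% in the vehicle library. Complex II took 2.03% in THP macrophages and 1.51% in THP mature neutrophils, and 2.17% and 1.72% in the vehicle library. Progenitors held more of complex I than macrophages (10378 against 8730 CPM in the THP library, 9019 against 7485 in the vehicle library) but no more of complex II (549 against 564, and 509 against 520).

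Single members departed from the common order. Progenitors had the highest level of 40 members in each library, monocytes of 21 (THP) and 18 (vehicle), macrophages of 9 and 11, and 63 of 75 members had the same highest class in both libraries. Atp5b was among those with the largest difference between progenitors and macrophages, with 1047, 938 and 651 CPM in progenitors, monocytes and macrophages of the THP library and 997, 843 and 569 CPM in the vehicle library. Ndufb3, an accessory subunit of complex I, was lowest not in neutrophils but in osteoclast-like cells, with 166 and 134 CPM, against 210 and 175 CPM in mature neutrophils and 368 and 305 CPM in progenitors. Cox4i1 had 1601 and 1398 CPM in osteoclast-like cells and 1249 and 1075 CPM in progenitors. Cox7a2l showed the same departure, with 348 and 351 CPM in osteoclast-like cells, 310 and 308 CPM in macrophages and 215 and 213 CPM in progenitors. In complex II, Sdhc had 117 and 109 CPM in macrophages and 96.0 and 89.9 CPM in progenitors, while Sdhb had its highest level in monocytes, at 266 and 233 CPM.

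**Figure D3:**
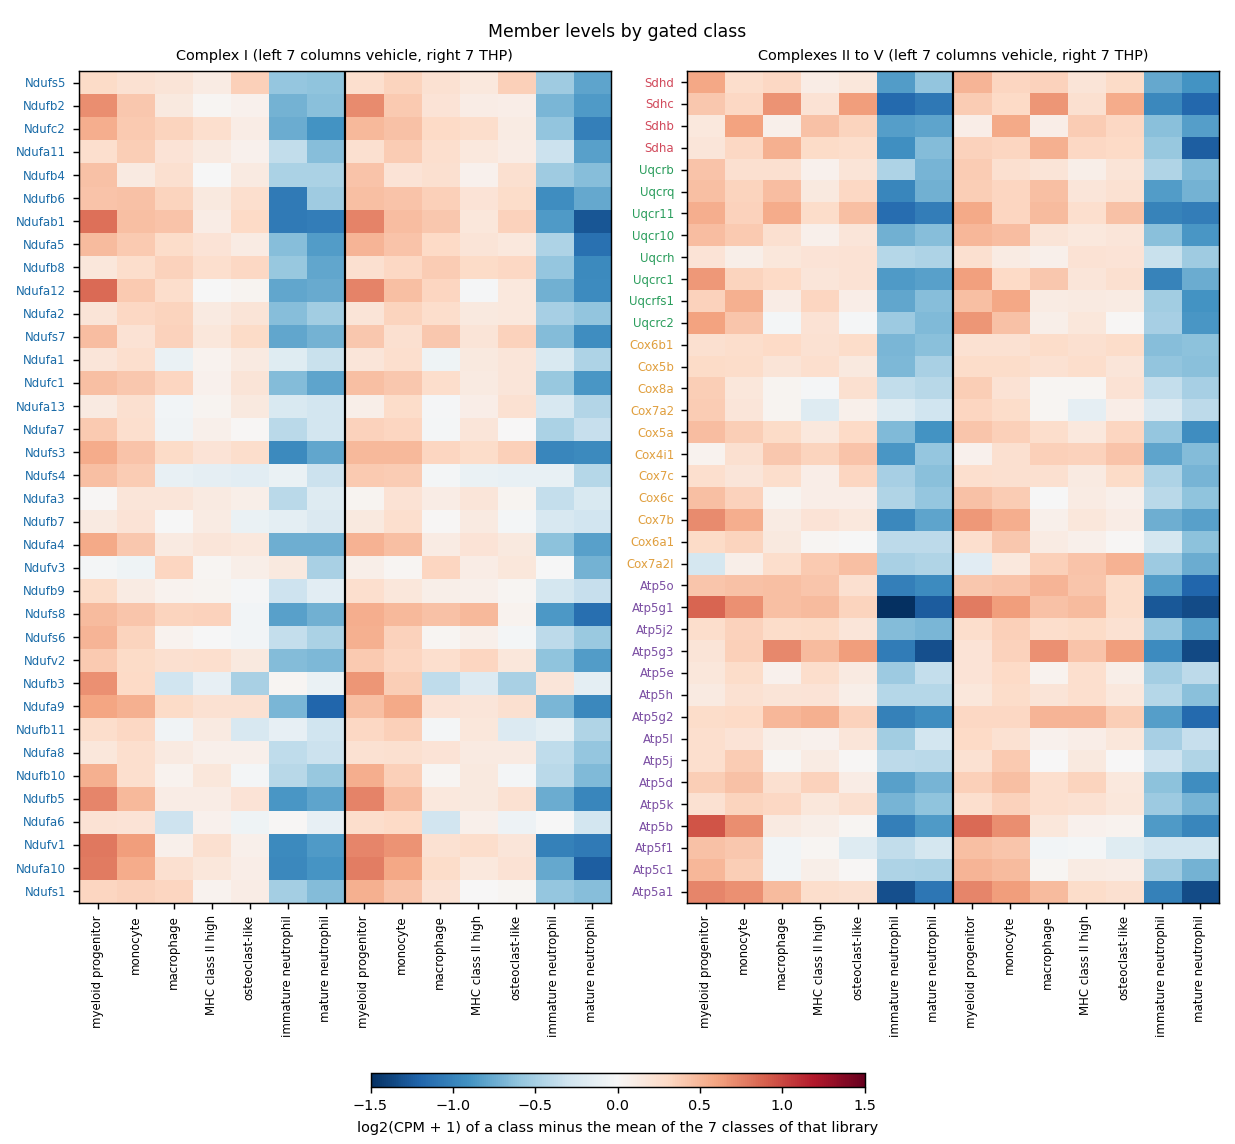
Log2(CPM + 1) of 74 of the 75 members at 10 CPM or more in a gated class, minus the mean of the 7 classes of the same library, with vehicle classes in the left columns and THP classes in the right columns of each panel. Red is above and blue below that mean. Most rows run from red in progenitors to blue in both neutrophil classes, with the same pattern in the 2 libraries, while Cox7a2l, Atp5g3, Sdhc and Ndufb3 break the order.

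The subunit c genes divided the classes between them. In progenitors Atp5g1 had 877 and 725 CPM (THP and vehicle) and Atp5g2 had 718 and 624 CPM. In macrophages Atp5g1 was lower than in progenitors, with 689 and 540 CPM, and Atp5g2 was higher, with 825 and 732 CPM. Atp5g3 had 303 and 257 CPM in progenitors and 426 and 371 CPM in macrophages. As a share of the UMIs of the 3 genes, Atp5g1 thus made up 46.2% and 45.1% in progenitors but 35.5% and 32.9% in macrophages, and Atp5g3 15.9% and 16.0% against 21.9% and 22.6%. In immature neutrophils Atp5g1 took 31.2% and 26.7%. The summed level of the 3 genes was alike in progenitors (1898 and 1606 CPM) and macrophages (1940 and 1642 CPM).

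Within the gated classes, the ratio between the libraries again lay above that of genes at large. In macrophages the member median was 0.21 and that of all genes -0.17; 72 of 75 members were above 0, 6 were higher and 1 lower past the limit, against a background of 6.41% and 35.6%. In monocytes the member median was 0.25, with 8 higher and 1 lower (background 6.14% and 36.2%). In progenitors it was 0.21, with 2 higher and 0 lower of 76 members at 10 CPM (background 5.73% and 34.8%). In osteoclast-like cells it was 0.23, with 8 higher and 1 lower (background 4.98% and 36.3%), and in MHC class II high cells 0.24, with 15 higher and 1 lower of 76 (background 7.34% and 41.2%). The member medians of these 5 classes thus lay between 0.21 and 0.25.

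The neutrophil classes had the outermost medians with this gate, and their places depended on the gate. Immature neutrophils had the highest member median, 0.28, with 29 of 75 higher and 1 lower (background 13.8% and 40.8%). Atp5g1 led there with 210 CPM (197 to 224) with THP and 132 CPM (124 to 141) with vehicle, a log2 ratio of 0.66. Mature neutrophils had the lowest, 0.09, with 52 of 75 above 0, 3 higher and 5 lower (background 9.11% and 52.9%). The median of all genes was also lowest there, at -0.37. With a stricter gate (3 times the next list) the member medians were 0.21 in both immature and mature neutrophils, below the other 5 classes, and MHC class II high cells had the highest, 0.26. With no margin they were 0.25 and 0.15, and monocytes had the highest, 0.26. Set against genes of the same length decile, mature neutrophils were at 0.12 and immature neutrophils at 0.13, in a range over the 7 classes from 0.10 to 0.13, so that mature neutrophils were no longer lowest. Sdha had 31.3 CPM (25.2 to 38.5) in THP and 53.4 CPM (45.8 to 62.0) in vehicle mature neutrophils, a log2 ratio of -0.75 from 89 and 173 UMIs. Whether the 2 neutrophil classes differ in their ratio was not tested, since each class has 1 library per treatment.

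**Figure D4:**
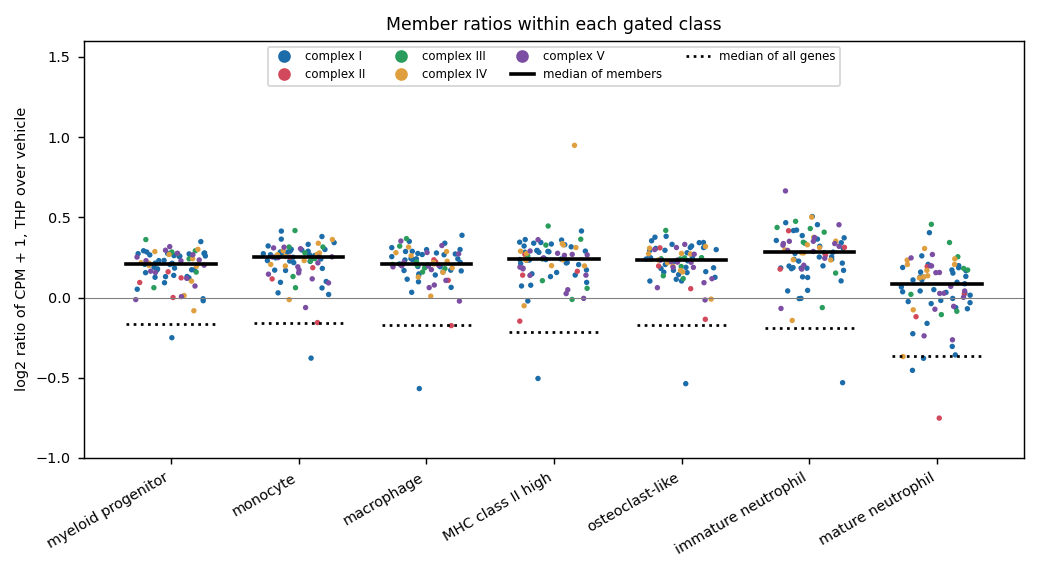
Log2 ratio of CPM + 1, THP over vehicle, of members at 10 CPM or more within each gated class, 1 point per member coloured by complex, with a solid bar at the member median and a dotted bar at the median of all genes. In each of the 7 classes the solid bar is above 0 and the dotted bar below 0. The single high point in the MHC class II high class is Cox6a2 and the lowest point in most classes is Ndufs1.

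The direction was shared by classes for most members. Ratios were above 0 in all 7 classes for 51 of the 75 members (68.0%), against 991 of 8012 genes (12.4%). This count was made on the CPM scale only, not with TMM factors or against genes of like length. The shortest decile held 44 of the members, and the median of all its genes over all cells was 0.15. The 7 classes also come from the same 2 libraries. Uqcrb, with the highest ratio over all cells among members at 10 CPM, ranged from 0.36 in progenitors to 0.46 in mature neutrophils. Ndufs1 was lower in the THP library in every class, from -0.25 in progenitors (50.6 and 60.4 CPM) to -0.57 in macrophages (40.5 and 60.4 CPM). Sdha was at -0.18 in macrophages, -0.00 in progenitors and 0.18 in immature neutrophils.

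The 6 members under 10 CPM were mostly tissue-restricted isoforms, and each had a class where it was least scarce. Cox6a2, the heart and muscle form of subunit 6a, had 7.96 CPM (7.60 to 8.34) with THP and 4.46 CPM (4.18 to 4.76) with vehicle, a log2 ratio of 0.71. It was highest in MHC class II high cells, with 22.0 and 10.9 CPM, and was found in 110 of 872 THP cells (12.6%, exact binomial interval 10.5% to 15.0%) and 72 of 917 vehicle cells (7.85%, 6.19% to 9.79%) of that class. Its UMIs were uneven over cells: 175 THP cells with at least 3 UMIs held 866 of its 1790 UMIs, and 73 vehicle cells held 384 of 927. These cells were not confined to that class: of the 175, 64 were ungated, 56 were macrophages and 42 were MHC class II high. Of the 73, the same groups held 31, 8 and 19. In mature neutrophils, which are shallower, 3 of 829 and 0 of 918 cells had a UMI. A count of 0 of 918 allows a share of up to 0.327% of cells with a UMI (3 counts of the total), which does not limit the share of cells that express the gene.

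Cox7a1, the other muscle isoform detected, had 6.65 and 4.36 CPM overall (0.51) and was highest in macrophages, at 9.64 and 8.17 CPM, with a UMI in 20.2% and 18.2% of those cells. Progenitors had 1.44 and 1.498 CPM. Cox6b2, known from testis, had 3.55 and 4.52 CPM overall (-0.28) and 14.5 and 15.4 CPM in progenitors, where 17.2% and 19.0% of cells had a UMI, against 2.56 and 2.62 CPM in macrophages. Of the 7 classes, progenitors thus had its highest level in both libraries. The small mast cell or basophil class (55 and 33 cells) had 17.7 CPM (7.63 to 34.8) and 24.7 CPM (10.7 to 48.7), from 8 UMIs in each library. Atp5s, an ATP synthase coupling factor rather than a fixed subunit, had 3.55 and 4.13 CPM (-0.17, or 0.05 with TMM factors). It had 6.73 and 6.47 CPM in progenitors, and 8.84 and 9.26 CPM in the mast cell or basophil class, from 4 and 3 UMIs.

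Cox4i2, a form of subunit 4 known from lung and from low oxygen, and Ndufa4l2, induced by low oxygen in other cells, were close to the detection limit. Cox4i2 had 224 and 166 UMIs, 1.00 and 0.80 CPM (0.15), with overlapping intervals. Of those UMIs, 37 and 8 came from the small stromal class (80 and 68 cells), at 17.0 and 2.71 CPM, and 121 and 92 from macrophages, at 1.45 and 1.97 CPM. Ndufa4l2 had 23 and 16 UMIs in all, 12 and 13 of them in the stromal class. The stromal markers, collagens among them, had a median of 0 UMIs in macrophage cells. Cox8b, the muscle form of subunit 8, and Cox8c and Cox7b2, known from testis, were not detectable at this depth, with an upper limit of 0.0164 CPM with THP and 0.0178 CPM with vehicle.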

How the data were processed

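Single-cell RNA of 2 libraries, 1 per treatment, was deposited by the authors as UMI counts, one whole number for each gene in each barcode and not normalized, written by software version 3.1.0 in matrix format 2, per the file headers. The submitters' processing notes name Cell Ranger, STAR, bcl2fastq and build mm10, without settings. Here, UMIs of kept barcodes were summed per library or gated class and divided by the total to give CPM, and ratios used CPM + 1. A gate needed a marker score of at least 1, at least 1.5 times the next of 11 lists, and at least 3 markers with a UMI. Coordinates and lengths came from GENCODE M21 (GRCm38), promoter windows from RefSeq (GRCm38.p6). Named genes were the member with the most UMIs and the 2 highest and 2 lowest ratios of each complex, members under 10 CPM, isoform groups, and the extremes of each list; a few others (among them Ndufv1, Ndufab1, Ndufb3, Ndufa3, Atp5b, Atp5d, Atp5e, Atp5f1, Cyc1, Pprc1 and Usmg5) were chosen after their values were seen. Members and lists were chosen with earlier results of these data known. Alternatives covered scaling (TMM and RLE factors, edgeR 4.0.16), filters, pseudocount, cell weighting, thinning to 5000 UMIs, class mix, transcript length, fold limit and gate. The computing of the ratio and its calls was checked on simulated Poisson counts with known folds. That simulation held no variation between cultures or preparations, no trend with length and no shift of most genes. It therefore could not test how far these affect the calls. With 1 library per group no test was run and no sample could be left out. Tools were Python 3.11.15, numpy 2.4.6, pandas 2.3.3, scipy 1.17.1 and R 4.3.3. Values of 1 member are not reported here, and the plots that label genes leave it out.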

Additional observations from a re-analysis of the deposited data

How the results depend on the processing

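The member median of 0.22 was 0.51 with TMM factors, 0.50 with RLE factors, 0.23 without the 5% of cells with the most UMIs, 0.27 with equal weight per cell, 0.24 with cells thinned to 5000 UMIs (10165 THP and 9012 vehicle cells kept), 0.23 with the same mix of gated classes in both libraries, and 0.11 against genes of the same length decile. The count past the limit was 7 higher and 1 lower, with 6.35% of all genes higher. It was 69 higher and 0 lower with TMM and with RLE factors, with 28.5% and 27.7% of all genes higher. With equal weight per cell 20 members and 8.15% of all genes were higher. With the same class mix these were 4 members and 5.25%. At 1.5-fold the member count was 0 and 0, against 2.33% of all genes higher and 17.3% lower. At 2-fold it was again 0 and 0, against 0.911% and 2.97%. At 1.5-fold with TMM factors it was 14 and 0, against 7.08% and 5.66%. That alternative was chosen after seeing the data, as was leaving S100a8 and S100a9 out of class totals. The larger counts under other scalings follow from dividing each library by its factor (TMM 0.906 for THP and 1.10 for vehicle), and the cause of the other changes was not tested. The other alternatives were genes from 1 CPM, a pseudocount of 0.1 CPM, all barcodes and a 20% mitochondrial limit. They left the median at 0.22 and the count between 7 and 9 higher with 1 lower. Between 6.03% and 6.58% of all genes were higher in them. All 5 complexes and all 7 classes had a positive member median in each alternative run for them. No paired analysis was possible because each treatment has 1 library. Counting error is small for abundant members and limits those under 10 CPM and the shallow neutrophil classes, while variation between cultures was not measured.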
